A study of Oryctolagus cuniculus with 6 samples.

Results

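The genes described here were fibronectin and 9 matricellular genes, SPARCL1, SPARC, TNC, TNR, THBS1, THBS2, SPP1, POSTN and CCN2, in rabbit retinas with and without proliferative vitreoretinopathy (PVR). They were taken by symbol from the 28788 genes in the files, and all 10 were found and passed the filter on low counts. SPARCL1 was chosen by its measured values, as it was among the strongest decreases in PVR in these same samples, so its difference between the groups is given as a description without a test. The other 9 were chosen as members of the same protein group. Retinas of 3 normal rabbit samples and 3 PVR samples were compared by RNA sequencing of polyadenylated RNA. PVR was induced in adult rabbits by puncturing the sclera, drawing off part of the vitreous body and injecting platelet-rich plasma into the vitreous cavity. The labels describe the controls only as normal retina, and no sham operation, strain, sex or time after the injection is named for either group. Whether each sample came from a separate animal is not stated, so the p-values measure the spread between these samples, which may be technical.

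Matricellular proteins are secreted into the extracellular matrix, where they change how cells attach, migrate and respond to growth factors rather than building fibres. Fibronectin is an adhesive glycoprotein that cells assemble into fibrils through integrins, and it is laid down early in wounds. Both kinds of protein are known from the membranes that form on the retina in PVR. In the healthy retina, SPARC and SPARCL1 are made largely by glia and vessels, and tenascin-R, the product of TNR, belongs to the matrix around neurons.

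The samples held between 31904593 and 43035080 counted reads, and samples of the same group differed by more than counting noise (chi-square per degree of freedom from 19.6 to 185). Photoreceptor markers, of which 8 of 9 were matched, summed to between 29397 and 47021 CPM (counts scaled to the same library size) in the 6 samples. The normal samples were uneven. Lens markers, of which 11 of 12 were matched, summed to 31294 CPM in normal replicate 2, to 19.3 and 16.1 in the other normal samples, and to 287 to 318 in PVR. Oligodendrocyte markers, of which 12 of 12 were matched, summed to 249 CPM in normal replicate 1, 581 in normal replicate 2 and 1242 in normal replicate 3, and to between 148 and 159 in PVR. For the 10 genes, fitted values without these samples are given where they moved most.

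SPARCL1 and FN1 had the largest fitted differences among the 10 genes, in opposite directions. SPARCL1, a secreted glycoprotein related to SPARC that promotes synapse formation, had an FPKM (the count scaled by gene length and library size) of 60.4 ± 33.7 (SD, n = 3) in normal retina, and 12.3 ± 1.79 (SD, n = 3) in PVR. FN1, the fibronectin gene, reached an FPKM of 2.95 ± 2.08 (SD, n = 3) in normal retina, and 11.9 ± 0.475 (SD, n = 3) in PVR. For both genes the 3 PVR samples were close to each other, whereas the normal samples were spread 3.79-fold for SPARCL1 and 6.93-fold for FN1. Within a sample, the FPKM of FN1 was 0.0291, 0.0708 and 0.0375 times that of SPARCL1 in normal replicates 1, 2 and 3. In PVR replicates 1, 2 and 3 the same ratio was 1.03, 1.06 and 0.856, so the transcripts of both genes stood at about the same level per length.

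**Figure D1:**
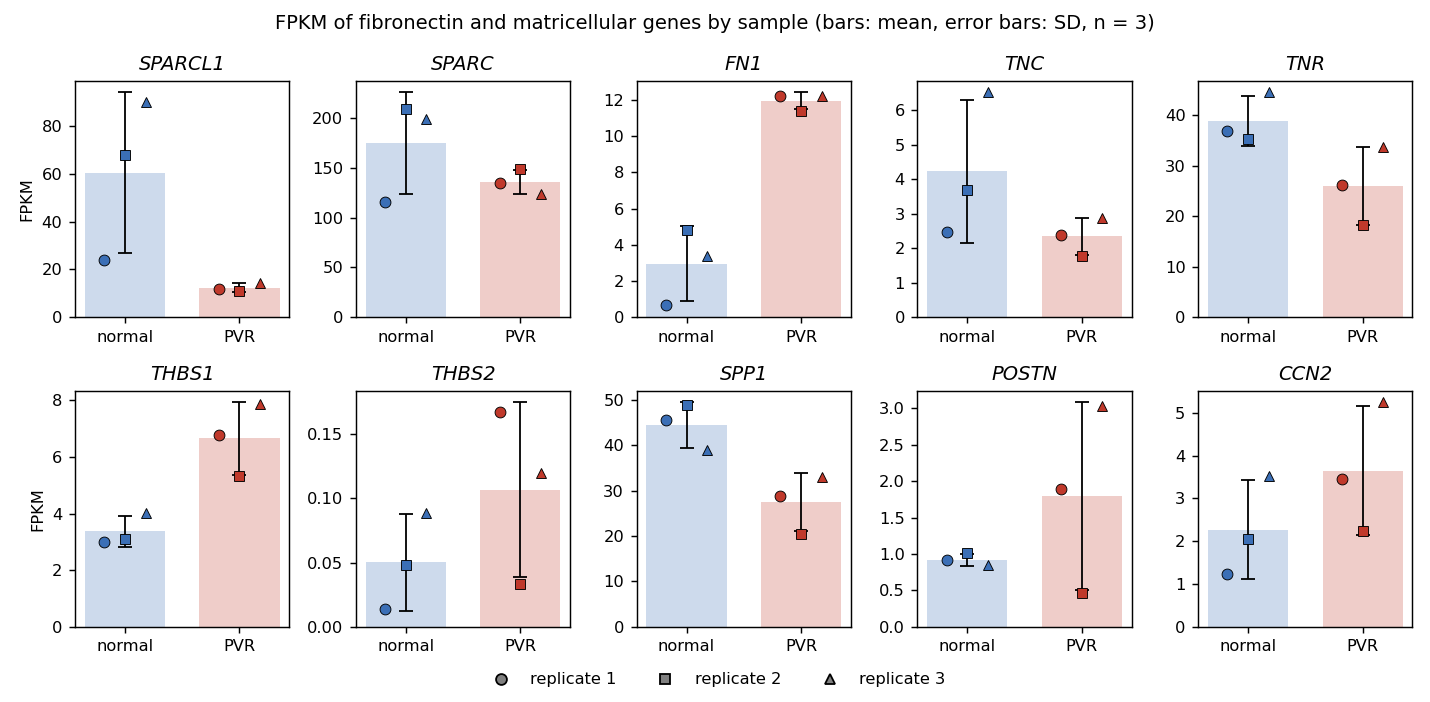
FPKM of each gene in the 3 normal (blue) and 3 PVR (red) samples, 1 panel per gene with its own axis from 0, bars for means and error bars for SD over n = 3. SPARCL1, TNR and SPP1 lie below the normal samples in every PVR sample, FN1 and THBS1 lie above them, and the other 5 genes overlap.

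None of the 9 genes other than SPARCL1 passed the test, which was edgeR's quasi-likelihood test, where a call required an adjusted p below 0.05 together with a log2 fold change above 1 or below -1. Of all 18697 genes tested, 0.690% were called higher and 0.316% were called lower. DESeq2 and limma-voom also called 0 of the 9 with both thresholds. At an unadjusted p under 0.05, 5 of the 9 differed in edgeR, where FN1 and THBS1 were higher and TNC, TNR and SPP1 were lower, against 21.2% of all genes tested. With an adjusted p under 0.05 and no threshold on the fold change, edgeR called 0 of the 9 against 1.70% of all genes. DESeq2 called 4 of the 9 in this way, THBS1 higher and TNC, TNR and SPP1 lower. The share of all genes that DESeq2 called in this way was not computed. With both thresholds DESeq2 called 807 of all genes, and edgeR called 188. All PVR samples exceeded all normal samples for 2 of the 9 (FN1 and THBS1), as for 17.0% of all genes tested. Every PVR sample was below every normal sample for 2 of the 9 (TNR and SPP1), as for 9.69% of all genes tested. Of the 9 fitted log2 fold changes, 5 were above 0 and 4 were below it, against 9146 and 9551 of all genes tested. The median log2 fold change of the 9 was 0.63, and that of all genes tested was -0.01. SPARCL1, at -2.36, was left out of this median, so the median does not describe a shift of the whole group.

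FN1 counts were 226, 1641 and 1132 in normal replicates 1, 2 and 3 and 3272, 3094 and 4410 in PVR replicates 1, 2 and 3. The FPKM was 0.691, 4.79 and 3.37 in normal retina, and 12.2, 11.4 and 12.2 in PVR. The lowest PVR sample was thus well above the highest normal sample, while normal replicate 1 stood far below the other normal samples. The log2 fold change was 1.94 (standard error 0.57), and the edgeR p was 0.0105 before and 0.125 after adjustment. Without normal replicate 2, the sample with lens transcripts, the log2 fold change was 2.52. Without normal replicate 1 it was smaller, 1.48, but the adjusted p from edgeR was 0.0368. With normal replicate 1 as the single normal sample it was 4.05 (edgeR adjusted p = 0.00250, assuming that this sample varies like the PVR samples). Over all 16 alternatives the adjusted p of FN1 from the models fitted across all genes lay between 0.00250 and 0.339. The reads were counted per gene, so forms of fibronectin that differ by splicing could not be separated.

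The genes whose profile over the 6 samples was closest to that of FN1 were GFAP, HEPH, FOSL2, RNASE4 and PDLIM3, out of 9511 genes with a symbol and a mean log2 CPM of at least 3. The measure was the root mean square distance of the mean-centred log2 CPM. GFAP, the intermediate filament of astrocytes and reactive Mueller glia, was at a distance of 0.53, and the other 4 were between 0.70 and 0.78. GFAP had an FPKM of 20.0, 60.5 and 86.1 in normal retina, and 157, 164 and 138 in PVR. Both genes were lowest in normal replicate 1 and high and even in PVR, but normal replicate 2 was above normal replicate 3 for FN1 and below it for GFAP. The 5 astrocyte markers, all matched and led by GFAP, summed to 100 CPM, 238 and 317 in normal replicates 1, 2 and 3 and to between 453 and 528 in PVR, and 0 of them passed both thresholds. PAX2, a transcription factor of retinal astrocytes in the same list and chosen after its values were seen, lay the other way, with 31, 33 and 128 counts in normal retina, and 1, 0 and 4 in PVR. ALDH1L1 of this list was also lower in every PVR sample. Its FPKM was 4.58, 4.90 and 4.15 in normal retina, and 3.64, 3.03 and 3.06 in PVR. The groups overlapped for S100B and PDGFRA, so GFAP was the only astrocyte marker above the normal samples in every PVR sample. The part of astrocytes in the FN1 values was not tested.

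SPARCL1 counts were 2571, 7683 and 10018 in normal replicates 1, 2 and 3 and 1057, 967 and 1707 in PVR replicates 1, 2 and 3. The FPKM was 23.7, 67.7 and 89.9 in normal retina, and 11.9, 10.7 and 14.3 in PVR. All PVR samples were below all normal samples, but normal replicate 1 was nearer to PVR than to the other normal samples. The fitted log2 fold change was -2.36 (standard error 0.43), and the mean FPKM was 4.91 times as high in the normal samples. The fitted value was between -1.98 and -2.74 with single samples left out. Against normal replicate 1 alone it was -1.01, so the size of the decrease rested on normal replicates 2 and 3.

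Among the profiles closest to SPARCL1 were those of ERMN, SRI, CNP and DAAM2, at distances of 0.58 to 0.66. ERMN and CNP are genes of myelinating oligodendrocytes. CNP had an FPKM of 9.18, 16.6 and 23.5 in normal retina, and 8.84, 8.38 and 6.73 in PVR, in the same order of samples as SPARCL1 among the normal retinas. DAAM2 had this order as well, but ERMN and SRI were highest in normal replicate 2. Their FPKM in normal replicates 1, 2 and 3 was 9.27, 16.4 and 13.8 for ERMN and 3.05, 17.0 and 5.63 for SRI. Of the 12 oligodendrocyte markers, 10 were tested and 4 passed both thresholds, all lower in PVR (MAG, MOBP, SOX10 and ERMN). None of these 4 calls held without PVR replicate 1 (edgeR adjusted p from 0.157 for ERMN to 0.239 for MAG) or without normal replicate 2. Over the alternatives the call was lost in 9 of 15 for MAG, 7 of 15 for MOBP, 10 of 16 for SOX10 and 3 of 16 for ERMN. For 8 of the 12, every PVR sample was below every normal sample, against 9.69% of all genes tested, and no marker was at 0 in all PVR samples. In bulk retina, fewer cells of a type, less RNA per cell and a difference in the part of the retina sampled cannot be told apart. The summed oligodendrocyte markers also differed among the normal samples alone (249, 581 and 1242 CPM in replicates 1, 2 and 3). The part of myelinated tissue in the SPARCL1 values was not tested.

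SPARCL1 is also abundant in endothelial cells and astrocytes. Of the 11 endothelial markers, all were tested, and VWF and CDH5 passed both thresholds and were lower in PVR. Both calls were lost without PVR replicate 1 (edgeR adjusted p = 0.106 for VWF and 0.188 for CDH5), and over the alternatives VWF lost its call in 3 of 16 and CDH5 in 6 of 15. VWF, a clotting factor carrier stored in endothelial cells, had an FPKM of 0.664, 1.72 and 2.69 in normal retina, and 0.0498, 0.0456 and 0.0659 in PVR. Its normal samples stood in the same order as those of SPARCL1. The summed endothelial markers did not follow it, since they were between 608 and 645 CPM in normal retina, and between 715 and 747 in PVR, with most of that sum in KDR and FLT1, growth factor receptors picked out after their values were seen. CDH5, which defines the junctions of these cells, had 24, 41 and 103 counts in normal retina, against 0, 0 and 1 in PVR. ERG, a transcription factor of these cells, had 10, 13 and 28 counts in normal retina, against 0, 1 and 0 in PVR. ERG was picked out after its values were seen and was not called (edgeR adjusted p = 0.0640). Of the 11 markers, 5 were below the normal samples in every PVR sample and 2 were above them. The shares of all genes tested were 9.69% and 17.0%. The groups overlapped for PECAM1, TEK, TIE1 and EGFL7, with log2 fold changes of 0.23, -1.29, -0.65 and -0.16. The part of vessels in the SPARCL1 values was not tested.

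**Figure D2:**
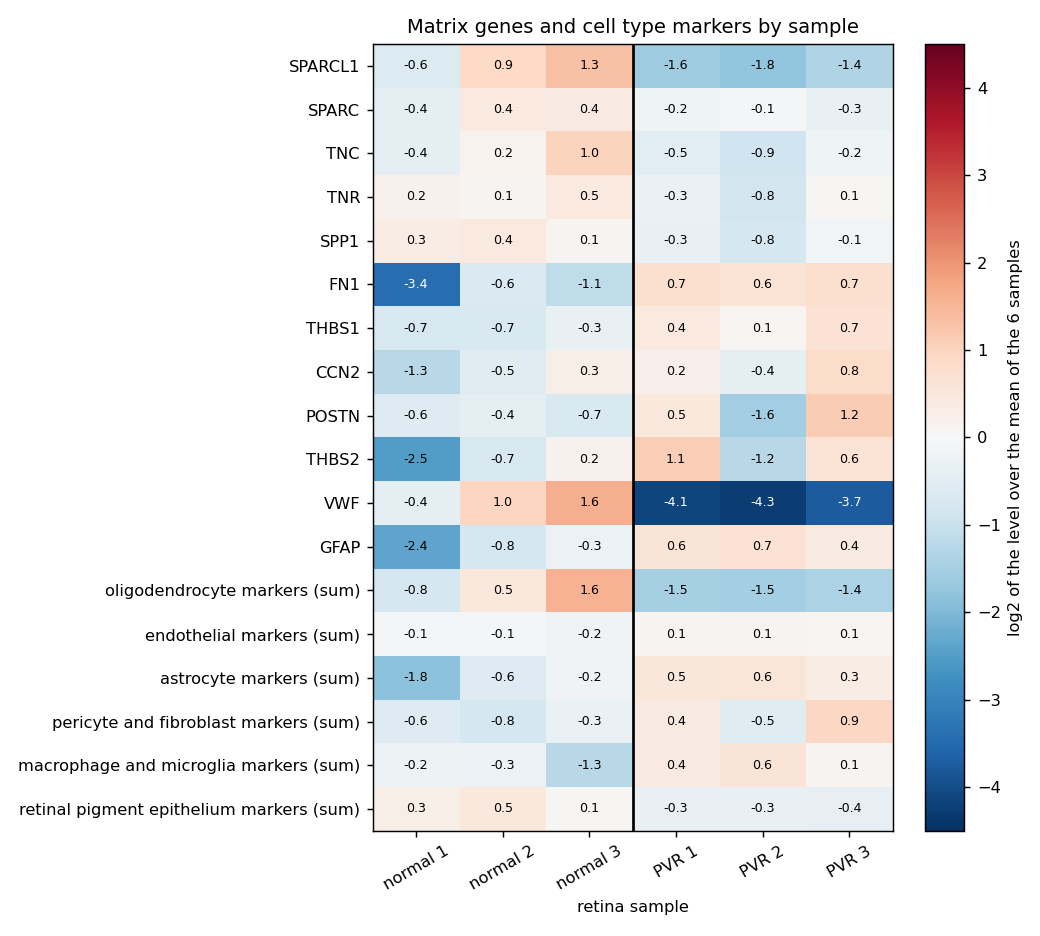
Log2 of the level in each sample over its mean in the 6 samples, as FPKM for single genes and as summed CPM for marker lists, with normal samples left and PVR samples right of the line. SPARCL1, VWF and the oligodendrocyte markers share low PVR values and a normal replicate 1 below the other normal samples, while FN1 and GFAP are lowest in normal replicate 1 and even across PVR.

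SPARC, which binds collagen and calcium and is the closest relative of SPARCL1 in the group, was the most abundant gene per length in both conditions. Its FPKM was 116, 209 and 199 in normal replicates 1, 2 and 3 and 135, 149 and 124 in PVR replicates 1, 2 and 3. The PVR samples all lay between normal replicate 1 and the other normal samples. The log2 fold change was -0.44 (standard error 0.21, edgeR adjusted p = 0.287), and against normal replicate 1 alone it changed sign to 0.16 (edgeR adjusted p = 0.561, between 0.0715 and 0.568 over all 16 alternatives). Without normal replicate 1 it was -0.66, and without normal replicate 2 it was -0.26. The ratio of SPARCL1 to SPARC within a sample was 0.205, 0.324 and 0.451 in normal retina, and 0.0883, 0.0723 and 0.115 in PVR, in FPKM. Profiles near SPARC were closer than those near FN1, with B4GALT5, SPECC1, ELL2 and BACH2 at distances of 0.12 to 0.13. For SPARC and these 4 genes alike, normal replicates 2 and 3 were above the other 4 samples.

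The tenascins were lower in PVR on average, without passing the test. TNR, the tenascin of perineuronal nets, had an FPKM of 36.8, 35.3 and 44.5 in normal retina, and 26.2, 18.2 and 33.7 in PVR. The groups did not overlap, but PVR replicate 3 came within a small distance of the lowest normal sample. The log2 fold change of TNR was -0.64 (standard error 0.22, edgeR adjusted p = 0.163), and its adjusted p over the alternatives lay between 0.0209, with DESeq2, and 0.468. TNC, the tenascin induced in wounds and made by glia, had an FPKM of 2.46, 3.69 and 6.52 in normal retina, and 2.39, 1.77 and 2.86 in PVR. PVR replicate 3 was above normal replicate 1, so the groups overlapped. Its log2 fold change was -0.91 (standard error 0.34, edgeR adjusted p = 0.194), -0.47 without normal replicate 3 and -0.13 against normal replicate 1 alone. The adjusted p of TNC was between 0.0318, with DESeq2, and 0.861 over the alternatives. The fitted value of TNC was below 0 in each of the 16 alternatives. Per length, TNR stood 6.82 to 14.9 times as high as TNC in normal retina, and 10.3 to 11.8 times as high in PVR.

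A list of 13 genes held the proteoglycans, link proteins and receptors that accompany tenascin-R in perineuronal nets, and chondroitin sulfate enzymes. Of these 13, 12 were matched and 11 were tested. None passed both thresholds, 4 of the 11 fitted values were above 0 and 7 were below it, and the median log2 fold change was -0.29. NCAN, which encodes the proteoglycan neurocan, was below the normal samples in every PVR sample, with an FPKM of 3.10, 2.80 and 3.71 in normal retina, and 1.93, 1.81 and 2.33 in PVR (log2 fold change -0.73, edgeR adjusted p = 0.0773). ACAN, which encodes aggrecan, lay the other way, with an FPKM of 0.243, 0.378 and 0.0364 in normal retina, and 0.917, 1.08 and 1.13 in PVR (log2 fold change 2.16, edgeR adjusted p = 0.136). BCAN was also below in every PVR sample, with an FPKM of 1.29, 1.61 and 2.08 in normal retina, and 1.05, 0.55 and 1.23 in PVR. So was HAPLN2, which was not tested, with 9, 49 and 82 counts in normal retina, and 1, 1 and 6 in PVR. Of the 11 tested, 2 were below in this way and 1 was above. The shares of all genes tested were 9.69% and 17.0%. NCAN, ACAN, BCAN and HAPLN2 were chosen after their values were seen. The most abundant members of the list were CNTN1, a receptor of tenascin-R on axons, at a mean FPKM of 21.0 in normal retina and 22.1 in PVR, CHSY1, a chondroitin sulfate synthase, and PTPRZ1, a receptor phosphatase of glia. CHSY1 had a log2 fold change of -0.07 and PTPRZ1 of -0.29.

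THBS1, an adhesive protein that activates latent TGF-beta and inhibits vessel growth, had 679, 734 and 928 counts in normal retina, and 1248, 997 and 1962 in PVR. Its FPKM was 3.02, 3.11 and 4.01 in normal retina, and 6.77, 5.33 and 7.89 in PVR, so the groups did not overlap and the normal samples were close together. The log2 fold change was 0.92 (standard error 0.18), under the fold threshold, and the edgeR p was 0.00116 before and 0.0580 after adjustment. This was the smallest adjusted p among the 9 genes, and over the 16 alternatives it lay between 8.99e-05, with DESeq2, and 0.259. Without normal replicate 3 THBS1 passed both thresholds, with a log2 fold change of 1.04 and an adjusted p of 0.0432 from edgeR. THBS2, a related thrombospondin, was barely detected, with 3, 11 and 20 counts in normal retina, and 30, 6 and 29 in PVR, and its log2 fold change was 1.02 (standard error 0.80, edgeR adjusted p = 0.484). The THBS2 groups overlapped, with PVR replicate 2 below normal replicates 2 and 3, and the fitted value was 0.59 without normal replicate 1, 1.69 without normal replicate 3 and 2.86 against normal replicate 1 alone. THBS1 also occurs in platelets. The platelet and red cell markers, of which 7 of 8 were matched, summed to between 31.8 and 36.1 CPM in normal retina, and to between 16.1 and 25.3 in PVR, a sum in which the haemoglobin genes HBB and HBA1 had the most counts. The platelet genes of the list differed among themselves. PPBP had 1, 18 and 0 counts in normal retina, against 11, 25 and 28 in PVR, and GP9 had 2, 13 and 13 counts in normal retina, against 13, 17 and 15 in PVR. ITGA2B had 108, 119 and 95 counts in normal retina, against 55, 58 and 101 in PVR, and GP1BA had at most 6 counts. These genes were picked out after their values were seen, and the part of platelets in the THBS1 values was not tested.

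SPP1, which encodes osteopontin, a phosphoprotein that binds integrins and CD44, was lower in every PVR sample. Its FPKM was 45.5, 49.0 and 39.1 in normal retina, and 28.8, 20.6 and 33.1 in PVR. The log2 fold change was -0.77 (standard error 0.19), and the edgeR p was 0.00420 before and 0.0892 after adjustment, between 0.00210 and 0.328 over the alternatives. DESeq2 gave an adjusted p of 0.00210 and the edgeR test without PVR replicate 3 gave 0.0495. SPP1 is made by activated macrophages as well as by retinal neurons and glia. The macrophage and microglia markers, of which 11 of 12 were matched, were between 37.9 and 77.6 CPM in sum in normal retina, and between 98.0 and 135 in PVR, and 9 of the 11 were higher in all PVR samples than in any normal sample, against 17.0% of all genes tested, although 0 passed both thresholds. The part of macrophages, neurons and glia in the SPP1 values was not tested.

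POSTN and CCN2 followed another pattern, in which the PVR samples differed among themselves. POSTN, which encodes periostin, a protein that helps to cross-link collagen in scars, had an FPKM of 0.913, 1.01 and 0.844 in normal retina, and 1.90, 0.463 and 3.03 in PVR. PVR replicates 1 and 3 were above all normal samples and PVR replicate 2 was below them. The log2 fold change was 0.90 (standard error 0.58, edgeR adjusted p = 0.399), 1.36 without PVR replicate 2 and 0.28 without PVR replicate 3. CCN2, known as connective tissue growth factor and induced by TGF-beta, had an FPKM of 1.24, 2.05 and 3.53 in normal retina, and 3.45, 2.25 and 5.26 in PVR. Its groups overlapped, and the log2 fold change was 0.63 (standard error 0.43, edgeR adjusted p = 0.431), 0.25 without PVR replicate 3, 0.34 without normal replicate 1, 1.08 without normal replicate 3 and 1.51 against normal replicate 1 alone. The adjusted p lay between 0.0999 and 0.778 for POSTN and between 0.194 and 0.747 for CCN2 over the alternatives.

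The low value of PVR replicate 2 was also seen in 7 collagen, contractile and matrix genes, which were chosen for it after their values were seen. COL1A1, a chain of type I collagen, had an FPKM of 2.49, 1.13 and 2.75 in normal retina, and 11.8, 1.21 and 21.6 in PVR. EFEMP1, a fibulin of elastic matrix, had 2.94, 3.0 and 5.96 in normal retina, and 25.9, 4.99 and 48.9 in PVR. FBLN1, LTBP2, LOXL2, COL3A1 and ACTA2 had the same order of PVR samples, with replicate 3 highest and replicate 2 lowest, and none of these 7 genes had an adjusted p under 0.05 in edgeR (0.107 to 0.381). POSTN had this order over a 6.55-fold range, and so had CCN2, THBS1, TNC, TNR, SPP1 and SPARCL1 over smaller ranges, from 1.33-fold for SPARCL1 to 2.34-fold for CCN2. FN1 ranged over 1.07-fold among the PVR samples. The pericyte and fibroblast markers, of which 13 of 13 were matched, summed to 236, 123 and 344 CPM in PVR replicates 1, 2 and 3 and to 119, 104 and 144 in the normal samples. Of these 13 markers, 9 were lowest in PVR replicate 2 among the PVR samples, while RGS5, ANPEP, LUM and PDGFRA were highest there. LUM, the collagen-binding lumican, had an FPKM of 35.2, 43.5 and 30.9 in PVR replicates 1, 2 and 3. RGS5, a pericyte gene, passed both thresholds and was lower in PVR, a call that was lost in 6 of 15 alternatives (edgeR adjusted p = 0.157 without PVR replicate 1), and no marker of the list was at 0 throughout a group. The part of fibroblasts in the POSTN and CCN2 values was not tested.

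**Figure D3:**
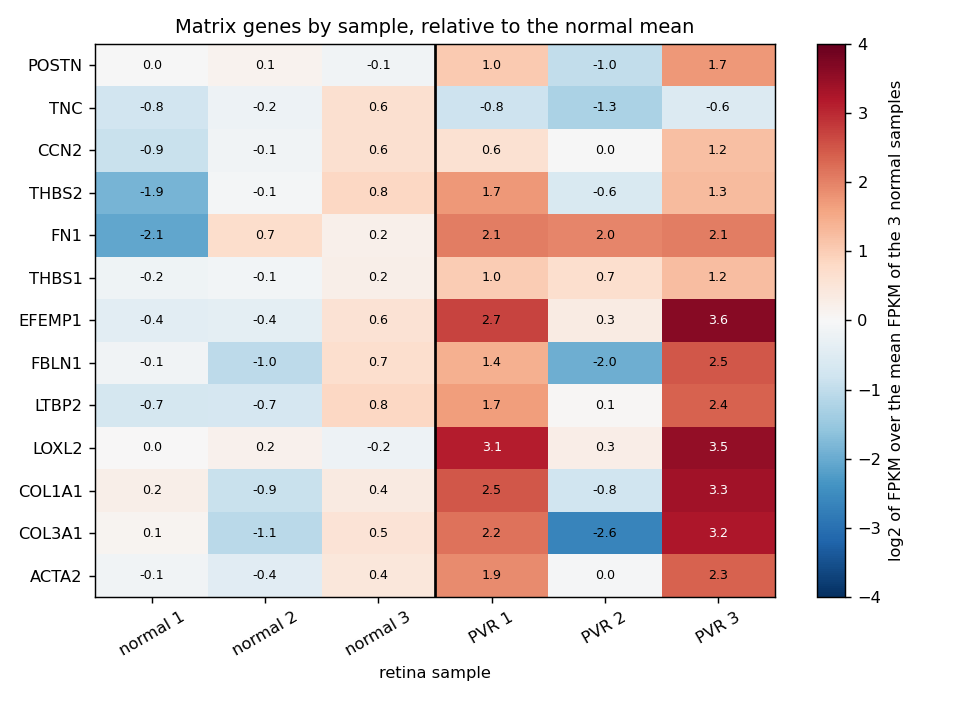
Log2 of FPKM over the mean of the 3 normal samples for 6 of the described genes and 7 other matrix and fibroblast genes, by sample. PVR replicate 2 is the lowest of the PVR samples in each of the 13 genes, least so for FN1, which ranges over 1.07-fold in PVR, and far more so for POSTN (6.55-fold) and COL1A1 (17.7-fold).

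Among 28 further matricellular relatives, of which 26 were matched and 21 were tested, 0 passed both thresholds. Their median log2 fold change was 0.39, with 15 fitted values above 0 and 6 below it, and 7 of the 21 had an unadjusted p under 0.05, against 21.2% of all genes tested. The most abundant were SMOC1 and SPOCK1, calcium-binding relatives of SPARC, and SPOCK2 of the same family. SMOC1 had an FPKM of 38.2 ± 0.672 (SD, n = 3) in normal retina, and 34.2 ± 1.57 (SD, n = 3) in PVR, which gave a log2 fold change of -0.23 (edgeR adjusted p = 0.142). SPOCK1 and SPOCK2 had log2 fold changes of -0.40 and -0.15, both with an adjusted p over 0.05. TGFBI, a matrix protein induced by TGF-beta, was higher in every PVR sample at low level, with 56, 69 and 34 counts in normal retina, and 88, 96 and 190 in PVR (log2 fold change 1.28, edgeR adjusted p = 0.117). TGFBI was chosen after its values were seen. IBSP, DMP1 and MEPE, mineralised tissue relatives of SPP1, had no count in any sample.

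**Figure D4:**
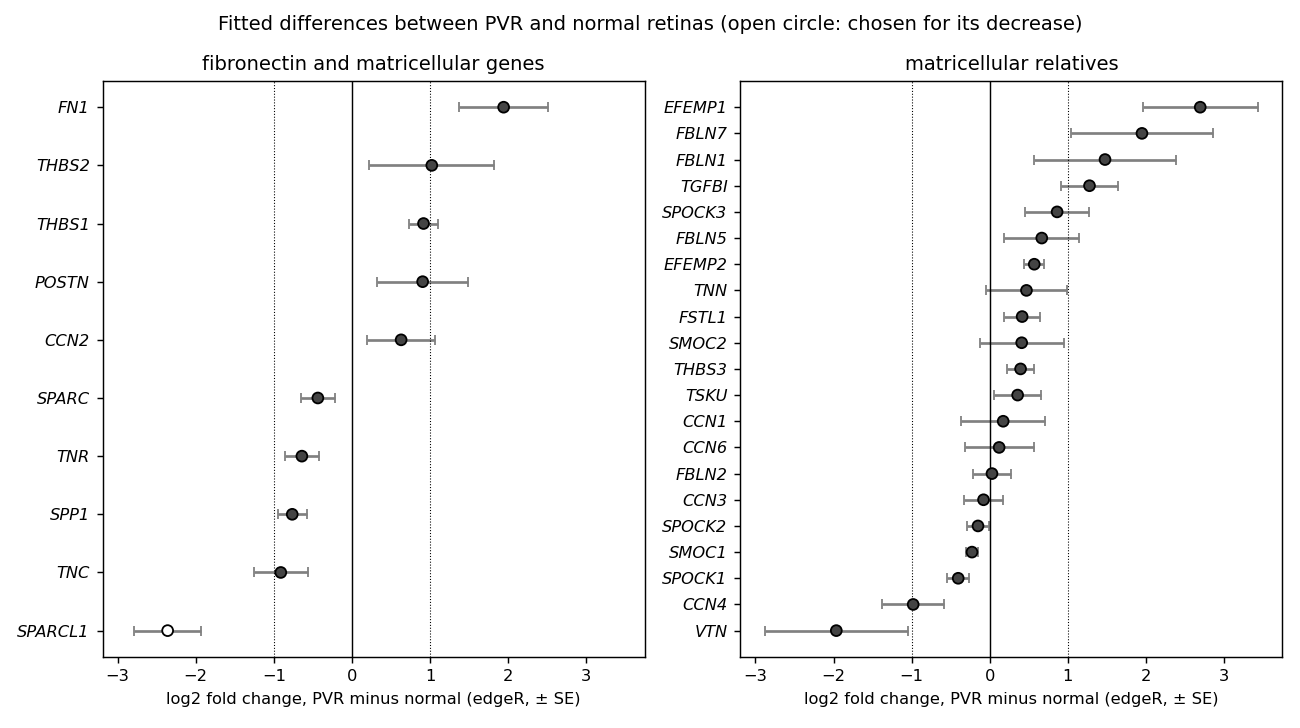
Log2 fold change (PVR minus normal, edgeR) with its standard error as the error bar, for the 10 genes on the left and the 21 tested relatives on the right. The open circle marks SPARCL1, which was chosen for its decrease, the dotted lines mark the fold threshold, and no filled circle passed both thresholds.

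Integrins, syndecans and CD44 are receptors through which these proteins act. Of 24 receptor genes, 23 were matched and 22 were tested, 0 passed both thresholds, and 3 had an adjusted p under 0.05 in edgeR with smaller folds, all higher in PVR, against 1.70% of all genes in either direction. ITGA4, the integrin chain that binds fibronectin and osteopontin on leukocytes, had a log2 fold change of 0.94 (edgeR adjusted p = 0.0403). SDC4, a syndecan that binds the heparin site of fibronectin, had an FPKM of 25.5 ± 2.05 (SD, n = 3) in normal retina, and 36.2 ± 0.360 (SD, n = 3) in PVR, which gave a log2 fold change of 0.44 (edgeR adjusted p = 0.0415). CD44, a receptor of osteopontin and hyaluronan, had a log2 fold change of 0.41 (edgeR adjusted p = 0.0478). Of the 16 alternatives, 8 gave ITGA4, 9 gave SDC4 and 10 gave CD44 an adjusted p over 0.05, with values up to 0.277 for ITGA4, 0.308 for SDC4 and 0.293 for CD44. ITGA4 and CD44 were chosen after their values were seen. The other abundant receptors, ITGB5 and ITGB1, had log2 fold changes of -0.26 and -0.03. All PVR samples exceeded all normal samples for 10 of the 22 tested receptors, against 17.0% of all genes tested, and were below all of them for 1, against 9.69%.

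Of 16 genes that respond to TGF-beta or to the YAP and TEAD factors, the group of signals that also induces CCN2 and THBS1, 15 were tested and 0 passed both thresholds. The median log2 fold change was 0.17, and the most abundant, ID1, SKIL and ID3, had log2 fold changes of 0.08, 0.21 and 0.07. Of 18 genes for the assembly of fibronectin, fibrillin and collagen fibres, 17 were matched and tested, 0 passed both thresholds, and the median log2 fold change was 0.32. In this list FBN1, LTBP1 and PLOD1 were the most abundant, with log2 fold changes of 0.91, 0.79 and -0.43. LTBP4, a latent TGF-beta binding protein of elastic fibres, was below the normal samples in every PVR sample, with an FPKM of 2.49, 3.32 and 4.92 in normal retina, and 1.93, 1.70 and 1.88 in PVR (log2 fold change -1.03, edgeR adjusted p = 0.0819). LTBP4 was the only gene of this list that lay so. In contrast, 5 of the 17 were above the normal samples in every PVR sample (LTBP3, LOX, LOXL2, LOXL3 and PLOD2). Over all genes tested, 9.69% were below and 17.0% above in this way. LOX had the smallest adjusted p of the list, with a log2 fold change of 0.73 (edgeR adjusted p = 0.0569). LTBP4 and LOX were chosen after their values were seen.

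Per length, the order of the 10 genes in the normal samples was SPARC, SPARCL1, SPP1, TNR, TNC, THBS1, FN1, CCN2, POSTN and THBS2. The ranges of neighbours overlapped from SPARCL1 to TNR and from TNC to CCN2, and they were separate elsewhere. In PVR the order was SPARC, SPP1, TNR, SPARCL1, FN1, THBS1, CCN2, TNC, POSTN and THBS2, with overlapping ranges between SPP1 and TNR, between SPARCL1 and FN1, and from CCN2 to POSTN. FN1 thus stood at position 7 in normal retina and 5 in PVR, and SPARCL1 at 2 and 4. Of the remaining marker lists, the 9 Mueller glia markers summed to between 3331 and 3948 CPM in normal retina. In PVR they summed to between 3954 and 4130 CPM. GLUL was called lower and CLU was called higher, calls that were lost in 3 and 2 of 16 alternatives. CLU had 27907, 31089 and 32177 counts in normal retina. In PVR it had 55159, 59347 and 63226, the most of the list. RLBP1, GLUL and KCNJ10 were below the normal samples in every PVR sample, and only CLU was above them. The 10 retinal pigment epithelium markers summed to between 622 and 832 CPM in normal retina, and between 466 and 480 in PVR, with TTR and LRAT called lower, calls that were lost in 10 and 9 of 16 alternatives. Without PVR replicate 1 none of GLUL, CLU, TTR and LRAT was called (edgeR adjusted p from 0.0949 for CLU to 0.240 for LRAT).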

How the data were processed

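RNA libraries came from 3 normal and 3 PVR samples of rabbit retina. The authors used HISAT2 for alignment to the OryCun2.0 build and htseq-count for gene counting. They deposited raw counts and FPKM values. The count divided by the FPKM gave the same length for a gene in every sample, so the deposited FPKM values use the total count as depth. The annotation release and the strand setting are not given in the sources used here, so reads of overlapping genes cannot be told apart. Counts were analysed with edgeR 4.0.16 in R 4.3.3 (default filter, TMM, quasi-likelihood test with condition as the single term, Benjamini-Hochberg adjustment over 18697 genes). The standard error is the size of the log2 fold change divided by the square root of F. A call needed adjusted p < 0.05 plus an absolute log2 fold change over 1. DESeq2 1.42.0, limma 3.58.1, other scalings, filters and units, a replicate block and left-out samples were alternatives. On simulated counts for the 18697 genes of this comparison, edgeR recovered 179 of 200 changed genes with 8 false calls among 187. DESeq2 recovered 188 of the 200 with 44 false calls among 232. These values hold only for the sizes of change and the spread that were simulated. How often changes as small as most of those fitted for the described genes would be called was not tested.

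The genes and lists were chosen with earlier results of these data known. Named genes are the 10 studied, the 3 with the highest FPKM in each list, genes past the thresholds and the 5 nearest profiles. A few of these are not reported here. Others are marked as chosen after their values were seen. Symbols not in the files were sought through identifiers and synonyms in RefSeq's table of mOryCun1.1, used for names and gene order only. Sequences were not used here, and positions served only to put genes in order. Library totals ranged from 31904593 to 43035080 counts, which limits the precision for genes with few counts such as THBS2.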

Additional observations from a re-analysis of the deposited data

How the results depend on the processing

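The sign of the fitted difference was the same in every alternative run for each of the 10 genes except SPARC, which was 0.16 with normal replicates 2 and 3 left out, an alternative chosen after seeing the data. That alternative leaves a single normal sample, assumed to vary like the PVR samples. The number of the 9 tested genes past both thresholds was 0 in 13 of 16 alternatives. With single samples left out it was between 0 and 1, being 1 without normal replicate 1 (FN1) and without normal replicate 3 (THBS1), and without normal replicates 2 and 3 it was 1 (FN1). The number with an adjusted p under 0.05 was 4 with DESeq2, 1 with no filter on low counts, 1 without normal replicates 2 and 3, and 0 to 1 with single samples left out. Over all genes, 188 passed both thresholds, against 807 with DESeq2, 87 with limma on log2(FPKM + 1), 82 with the replicate block, 87 without normal replicates 2 and 3 and 22 to 436 with single samples left out, the lowest without PVR replicate 1 and the highest without PVR replicate 3. With the replicate block the number of the 9 genes past both thresholds stayed 0. The replicate numbers do not pair the samples by the labels, and the correlations of same-numbered samples were between -0.0532 and 0.0373.

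Genes of the lists with fitted values near 0 changed sign. ITGB1, at -0.03, was 0.0418 and 0.0409 on log2(FPKM + 0.1) and log2(FPKM + 1), 0.00325 with upper-quartile factors, 0.0408 without PVR replicate 2, 0.00175 and 0.00773 without normal replicates 2 or 3, and 0.0811 without both, and it ranged from -0.103 to 0.0408 with single samples left out. CNTN1, at 0.0063, was -0.0936, -0.0701 and -0.0462 without PVR replicate 3, normal replicate 1 and normal replicate 2. CHSY1 was 0.00362 and 0.00336 on the FPKM scales and 0.0129 without normal replicates 2 and 3. Without PVR replicate 3 and without normal replicate 3, ID1 was -0.122 and -0.0538 and ID3 was -0.156 and -0.0389, and with single samples left out they reached 0.243 and 0.274. CNTN1 reached 0.161. The cause of these changes was not tested. With 3 samples a group, the spread among the normal samples limits what can be called for FN1 and SPARC, and THBS2 has few counts and a wide spread.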

Other observations

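SPP1 and SPARCL1 are near each other in the gene order of the rabbit genome, which was looked up after their values were seen. In RefSeq's annotation of mOryCun1.1 (the files use OryCun2.0), SPP1, MEPE, IBSP, DMP1, DSPP and SPARCL1 follow each other with no other protein-coding gene between them. SPP1 and SPARCL1 were below the normal samples in every PVR sample, but their normal samples differed: SPP1 counts were 2702, 3044 and 2384 in normal replicates 1, 2 and 3, whereas SPARCL1 counts were 2571, 7683 and 10018. MEPE, IBSP and DMP1 had no count in any sample, and DSPP was counted 0, 0 and 2 times in normal retina, and 5, 0 and 2 times in PVR.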
